A study of Mus musculus with 12 samples.

Results

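The H3K27me3 peaks of Ezh2-rescued cells were compared with those of wild-type cells of the same clone, to find which wild-type sites and genes carried the mark with ectopic Ezh2 and which rescue peaks had no wild-type counterpart. The comparison used 3 of the 10 libraries of the series that have a peak list: 1 library of the Ezh2 rescue and 2 of wild type, all from experiment 2. After exact duplicate lines were dropped, the autosomes held 64240 peaks in the rescue, against 18229 and 13384 peaks in wild-type replicates 1 and 2, of 461631 peaks in all lists of the series. H3K27me3 was mapped by ChIP-seq with an antibody labelled clone 7b11.

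All 3 libraries came from clone C2, a single clone of c-Myc-transformed, immortalized mouse embryonic fibroblasts (iMEFs) with conditional Ezh2 and a Cre recombinase that 4-hydroxytamoxifen (OHT) activates. The rescue is labelled the Ezh2 pre-rescue condition: Flag-tagged Ezh2, introduced by a retrovirus and stably expressed, was, by the study's methods, in place before OHT was used to delete the endogenous gene. Its expression was driven by the retroviral vector rather than the endogenous promoter, and the loss of endogenous Ezh2 cannot be checked in peak lists. Wild type is labelled Ezh2 WT/WT, while the study's methods describe the clone as Ezh2 flox/Δ, with a floxed and a deleted allele. By that description the wild-type cells already lacked an Ezh2 allele, and they carried c-Myc and the inducible Cre too. The labels do not say which libraries received OHT or whether the wild-type replicates came from separate cultures.

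H3K27me3, trimethylation of lysine 27 of histone H3, is laid down by Polycomb repressive complex 2 (PRC2), whose catalytic subunit is Ezh2 or its paralog Ezh1. The core complex also holds Eed, which binds the mark and stimulates the enzyme, and Suz12. The mark is known for broad domains over silent developmental genes, such as the HOX clusters, and in fibroblasts over genes of other lineages. CBX proteins of PRC1 bind it.

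The sequences immediately upstream of 5 transcription start sites (TSS) show the kinds of promoter described in what follows: kept (Cdkn1a and Hoxb13, with promoter peaks in all 3 lists), new (Uncx and Neurog3, with promoter peaks in the rescue alone) and without a rescue peak (E2f6, in both wild-type lists). They were read from the mm9 genome, the build of the peak lists, 5′ to 3′ on the strand of the gene, with each CG dinucleotide in capitals.
Cdkn1a, chr17:29227674-29227923, plus strand: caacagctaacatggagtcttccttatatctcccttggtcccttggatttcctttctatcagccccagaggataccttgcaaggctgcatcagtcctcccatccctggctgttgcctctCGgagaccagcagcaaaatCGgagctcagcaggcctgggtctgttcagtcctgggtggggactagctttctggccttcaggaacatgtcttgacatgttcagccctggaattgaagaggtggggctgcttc
Hoxb13, chr11:96055380-96055629, plus strand: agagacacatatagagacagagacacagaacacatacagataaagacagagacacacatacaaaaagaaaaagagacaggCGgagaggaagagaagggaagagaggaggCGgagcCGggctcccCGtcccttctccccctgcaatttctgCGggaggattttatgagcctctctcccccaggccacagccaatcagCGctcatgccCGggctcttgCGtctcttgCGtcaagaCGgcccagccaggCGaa
Uncx, chr5:140019198-140019447, plus strand: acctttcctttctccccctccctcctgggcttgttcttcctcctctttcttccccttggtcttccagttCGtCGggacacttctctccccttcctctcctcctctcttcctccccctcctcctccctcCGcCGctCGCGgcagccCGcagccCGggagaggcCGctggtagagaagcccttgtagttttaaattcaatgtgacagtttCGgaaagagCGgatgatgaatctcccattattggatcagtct
Neurog3, chr10:61595588-61595837, plus strand: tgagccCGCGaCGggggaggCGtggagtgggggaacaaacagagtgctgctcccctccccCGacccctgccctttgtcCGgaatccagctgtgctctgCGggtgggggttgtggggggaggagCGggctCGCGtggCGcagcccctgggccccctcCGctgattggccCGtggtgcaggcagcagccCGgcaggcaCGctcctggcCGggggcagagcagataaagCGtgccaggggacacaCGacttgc
E2f6, chr12:16817521-16817770, plus strand: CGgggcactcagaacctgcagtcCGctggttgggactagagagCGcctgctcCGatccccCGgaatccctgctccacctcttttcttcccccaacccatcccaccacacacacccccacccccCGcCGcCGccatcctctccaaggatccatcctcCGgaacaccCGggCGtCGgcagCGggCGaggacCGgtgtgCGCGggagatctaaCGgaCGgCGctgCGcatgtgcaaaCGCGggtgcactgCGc

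The Cdkn1a stretch held 2 CG dinucleotides, and 100% of it lay under a rescue peak, against 70.8% and 90.8% under wild-type peaks. The Hoxb13 stretch held 11 and lay wholly under peaks of the rescue and of wild-type replicate 1, and under none of replicate 2. The Uncx stretch held 11 and the Neurog3 stretch 18, and both lay wholly under rescue peaks and under no wild-type peak. The E2f6 stretch held 24 and met no peak of the 3 lists, since the wild-type peaks at this gene lay farther upstream. Of the 250 bases upstream of all 21418 protein-coding autosomal TSS, 92.6% held at least 1 CG dinucleotide, with a median of 9. That median was 9 over the kept promoters and 6 over the new ones, so the 5 printed stretches do not stand for their classes.

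Peaks covered 80.3 Mb in the rescue, against 14.9 and 11.2 Mb in wild type, or 3.25% of the autosomes against 0.601% and 0.455%. The covered length in the rescue was 6.16 times the wild-type mean of 13 ± 2.55 Mb (SD, n = 2). By Western blot, the study found the predeletion rescue similar to wild type in total Ezh2 and H3K27me3. Length under called peaks and the total amount of the mark are unlike measures, so the ratio is not a change in amount. Peak numbers differed more than peak widths, with a median peak width of 950 bp in the rescue and of 750 bp in each wild-type list. In Ezh2 -/- cells of the same experiment the lists held 29 and 382 autosomal peaks. Of the rescue peaks, 34 overlapped the shorter of these lists and 294 the longer, or 0.0529% and 0.458%. Over all 1-kb windows of the autosomes, 0.00344% and 0.0324% met them. Lists this short cannot meet more than a small part of the rescue peaks. The lists hold positions alone, with no height or score, and say nothing of the depth at a peak, and in bulk cells fewer marked cells and less mark per cell cannot be told apart. With 1 library against 2, no test can pass the threshold (the smallest permutation p is 0.33), so the shares that follow are descriptions, with 95% Wilson intervals that cover counting error only.

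Most wild-type sites were also peaks in the rescue. Overlapping peaks of both wild-type lists formed 3936 reproducible regions, and 3367 of them met a rescue peak by at least 1 bp, a share of 85.5% (84.4% to 86.6%). Over all 1-kb windows of the autosomes, 5.33% met a rescue peak. The share was higher for wider wild-type regions. Of the 412 regions under 800 bp, 66.5% were kept (61.8% to 70.9%), and of the 402 regions of 2000 bp or more, 99.5% (98.2% to 99.9%). By chromosome it lay between 73.2% and 91.7%.

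**Figure D1:**
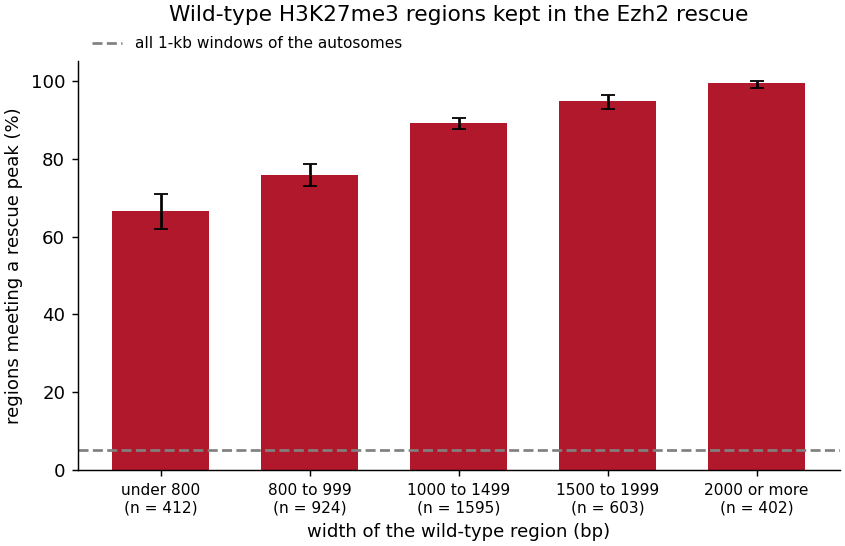
Share of reproducible wild-type regions that met an Ezh2 rescue peak (%), by the width of the wild-type region in bp. Bars are shares over regions, error bars 95% Wilson intervals, and the dashed line the 5.33% of all 1-kb windows that met a rescue peak; the bars run between 66.5% and 99.5%.

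Each wild-type list shared more of its peaks with the rescue list than with the other wild-type list. Of the replicate 1 peaks, 63.0% met a rescue peak and 22.2% a replicate 2 peak. Of the replicate 2 peaks, 68.4% met a rescue peak and 30.2% a replicate 1 peak. The windows that met a peak of replicate 1 and of replicate 2 made up 1.28% and 0.950% of the autosomes, against the 5.33% of the longer rescue list. Peaks found in a single wild-type library were kept less often than the reproducible regions: 56.5% of those of replicate 1 alone and 61.1% of those of replicate 2 alone met a rescue peak.

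At the kept regions the rescue peaks were wider. These regions were chosen for meeting a rescue peak, which longer peaks do more easily. A rescue peak was also counted whole at each region it met. The lengths are therefore a description and not a test of widening. The peaks that met a region measured a median of 2250 bp in the rescue (quartiles 1400 and 3950 bp), against 950 bp in each wild-type list (quartiles 750 and 1250 bp in both). They were longer in the rescue than in both wild-type libraries at 3042 regions (90.3%) and shorter than in both at 69 (2.05%). The median ratio of the rescue length to the wild-type mean was 2.16, while that of replicate 1 to replicate 2 was 1. Rescue peaks covered 73.9% of the kept regions from end to end.

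**Figure D2:**
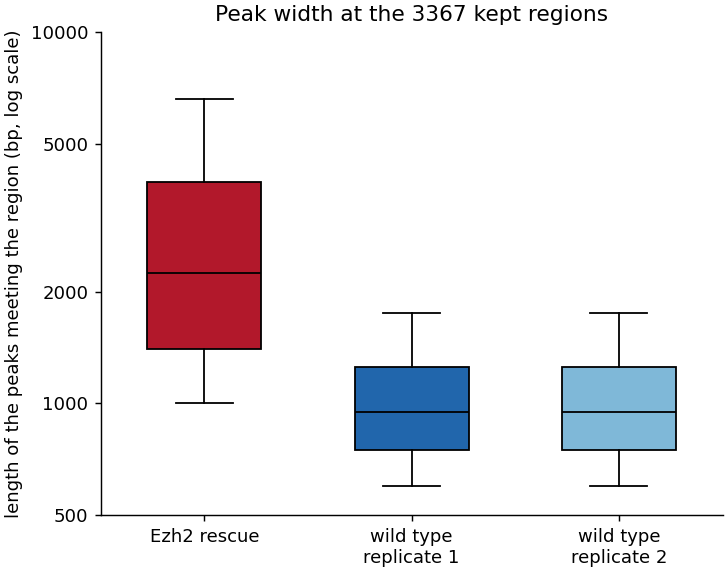
Length of the peaks that met each of the 3367 kept regions (bp, log scale) in the Ezh2 rescue and the wild-type replicates. Regions were chosen for meeting a rescue peak, and each peak is counted whole. Boxes show the quartiles and the median, and whiskers the 10th and 90th percentiles over regions; the lower quartile of the rescue, 1400 bp, lies above the upper quartile of both wild-type libraries, 1250 bp.

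The 5 widest kept regions lay at Slc4a1, Skap1, Tgm2, Galnt9 and Plxdc1. At Slc4a1, the erythrocyte anion exchanger, the region chr11:102217901-102223800 was wholly under a rescue peak, against 86.4% and 73.7% under wild-type peaks. At Tgm2, a transglutaminase that crosslinks proteins, chr2:157968701-157973800 spanned the TSS and was covered to 100% in the rescue, against 97.1% and 98.0% in wild type. The Plxdc1 region, chr11:97836301-97841100, was the exception of the 5: rescue peaks covered 35.4% of it, against 94.8% and 99.0% in wild type, and neither wild-type list of experiment 1 had a peak there.

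The rescue peaks that reached farthest past the wild-type peaks beneath them spanned much longer stretches. One of 34300 bp, chr2:26949951-26984250 over Adamtsl2 and Fam163b, was the widest of the list, and wild-type peaks covered 16.5% and 19% of it. At Ngfr, the p75 neurotrophin receptor, a rescue peak of 17300 bp (chr11:95433501-95450800) held 2300 and 4600 bp of wild-type peaks. At Nr5a1, the nuclear receptor SF-1 of gonads and adrenal glands, a rescue peak of 14950 bp (chr2:38552351-38567300) held 1800 and 1150 bp. Both were almost wholly under peaks of experiment 1 wild type, which covered 96.4% and 100% of the Ngfr stretch and 94.0% and 98.7% of the Nr5a1 stretch.

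Regions without a rescue peak numbered 569 and were narrow, with 5 widest of 1900 to 2050 bp. These lay within Gsn, which encodes the actin-severing protein gelsolin, within Atp2b4, a plasma membrane calcium pump, within Cd300c, and near Gpr179 and Prkaa2. At Gsn, wild-type peaks covered 63.4% and 78% of chr2:35134601-35136650, and neither the Ezh1 rescue nor experiment 1 wild type had a peak there. At Prkaa2, a catalytic subunit of AMP-activated kinase, chr4:104791351-104793250 was covered to 84.2% and 44.7% in wild type, and wholly in the Ezh1 rescue and both libraries of experiment 1. A rescue peak lay within 5000 bp of 395 of the 569 regions (69.4%), at a median distance of 2200 bp over all of them. The 569 were also marked less often than the kept regions in lists made from other libraries. Of the 569, 49.6% met a reproducible wild-type region of experiment 1 (45.5% to 53.7%), against 82.1% of the kept regions (80.8% to 83.3%). Over all 1-kb windows of the autosomes that share was 8.66%. An Ezh1 rescue peak met 77.0% of the 569, 96.9% of the kept regions and 13.4% of the windows. Narrower regions meet any list less easily, and the sets were not matched for width.

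Most rescue peaks had no wild-type peak. Of the 64240, 49003 (76.3%) met neither wild-type list, 6898 (10.7%) met replicate 1 alone, 4721 (7.35%) replicate 2 alone and 3618 (5.63%) both. The new peaks were narrower, with a median of 900 bp against 2250 bp for those in both wild-type lists, and held 63.3% of the bases under rescue peaks. They lay closer to wild-type peaks than the rest of the genome. A wild-type peak was within 5000 bp of 43.2% of the new peaks, against 7.04% of the 1-kb windows without a wild-type peak, and the median distances were 6600 bp and 170500 bp.

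The new peaks were for the most part sites that experiment 1 had marked in wild type. That experiment used the same clone with another antibody and another sequencer, and its 2 wild-type lists covered more than the wild-type lists of experiment 2, with 140 and 174 Mb. Of the 49003 new peaks, 29738 met a region reproducible in experiment 1, a share of 60.7% (60.3% to 61.1%), where the 1-kb windows without a wild-type peak of experiment 2 gave 7.52%. Rescue peaks in both wild-type lists met such a region in 84.1% of cases. An Ezh1 rescue peak met 82.6% of the new peaks, where the same windows gave 12.0%. The peaks in neither experiment 1 list numbered 14596, with a median width of 750 bp, and 5096 of these, 7.93% of all rescue peaks, were absent from the Ezh1 rescue too.

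The widest new peaks lay at Kcnip3 and its neighbour Gm17601 (8600 bp, chr2:127340301-127348900), in Lama5 (7950 bp, chr2:179926451-179934400), in Wnt3 (7700 bp, chr11:103655551-103663250), beside Kcnj12 (7500 bp, chr11:60828451-60835950) and in a stretch of chromosome 5 with no overlapping gene (7100 bp, chr5:112200851-112207950). Kcnip3 encodes a calcium-binding partner of potassium channels, Lama5 a laminin chain, Wnt3 a secreted Wnt ligand and Kcnj12 an inward-rectifier potassium channel. Peaks of the 2 experiment 1 wild-type libraries covered between 56.5% and 100% of each of these 5 stretches, and the Ezh1 rescue covered all of them.

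Broad domains showed the same difference in covered length. Reproducible wild-type regions of experiment 1 of at least 20000 bp numbered 777, and rescue peaks covered a median of 46.4% of each, against 7.77% and 5.28% in wild type. The share was higher in the rescue than in both wild-type libraries in 758 domains (97.6%). At the domain of 96617 bp that holds Hoxb13, rescue peaks covered 76.4%, against 28.8% and 18.9% in wild type. At the domain of Irf8, a transcription factor of myeloid and lymphoid cells, they covered 76.5%, against 10.6% and 12.6%.

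**Figure D3:**
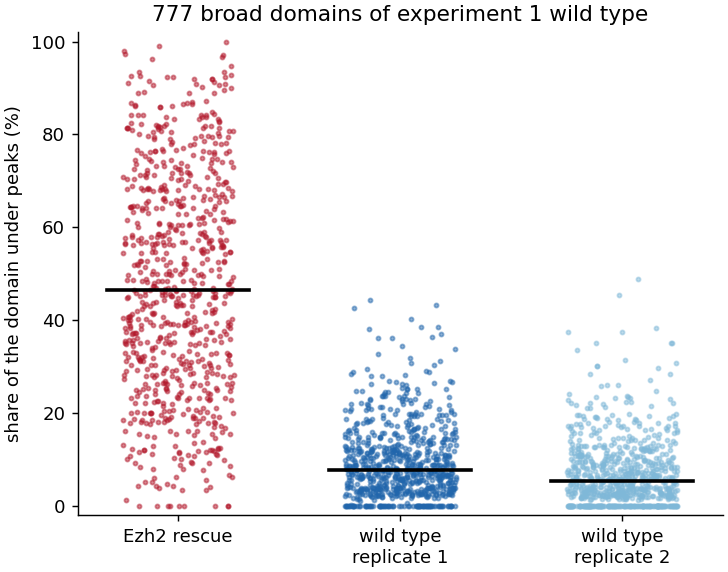
Share of each broad H3K27me3 domain of experiment 1 wild type (at least 20000 bp, n = 777) under peaks (%), in the Ezh2 rescue and the wild-type replicates of experiment 2. Points are domains and lines medians, which were 46.4%, 7.77% and 5.28%.

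The sets differed in where they lay. A peak or region was assigned to a promoter when it came within 2500 bp of the TSS of a protein-coding gene. That held for 15.4% of the kept regions, 8.63% of the new peaks and 10.9% of the regions without a rescue peak, against 4.78% of all 1-kb windows. The 5096 rescue peaks absent from wild type of both experiments and from the Ezh1 rescue were near that level, with 5.89%. All sets were richer in GC than the genome: the central 500 bases had a median GC content of 48.2% in new peaks, 49.2% in kept regions and 47.0% in regions without a rescue peak, against 41.8% over the autosomes. Stretches of this length with 20 or more CG dinucleotides made up 1.04% of the new peaks, 1.44% of the rescue peaks in both wild-type lists and 0.832% of the kept regions, against 1.13% of the autosomes.

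Most genes marked in wild type were marked in the rescue too, here counted by any peak within the promoter window rather than by overlapping peaks. Of the 21418 protein-coding autosomal genes, 4188 (19.6%) had a rescue peak within 2500 bp of the TSS, against 1575 (7.35%) and 1355 (6.33%) in wild-type replicates 1 and 2. Both wild-type lists marked 695 genes (3.24%), of which 654 had a rescue peak (94.1%, 92.1% to 95.6%). A further 1540 genes were marked in 1 wild-type list, and 1196 of them in the rescue (77.7%). A gene was called new when its promoter window held a rescue peak and no wild-type peak, whatever that rescue peak met beyond the window. This held for 2338 genes, or 10.9% of all genes and 55.8% of those marked in the rescue.

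The promoters marked in all 3 lists carried longer peaks in the rescue. Over the 654 kept genes, peaks covered a median of 58.0% of the promoter window in the rescue, against 20% and 18.6% in wild type, and over the 2338 new genes 20% in the rescue. In all 3 lists the coverage dipped at the TSS itself. At kept genes it reached 62.5% at its highest, 1450 bp downstream of the TSS, and 47.5% at the TSS in the rescue, against 30.4% and 27.7% at the highest bin and 12.7% and 12.8% at the TSS in wild type.

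**Figure D4:**
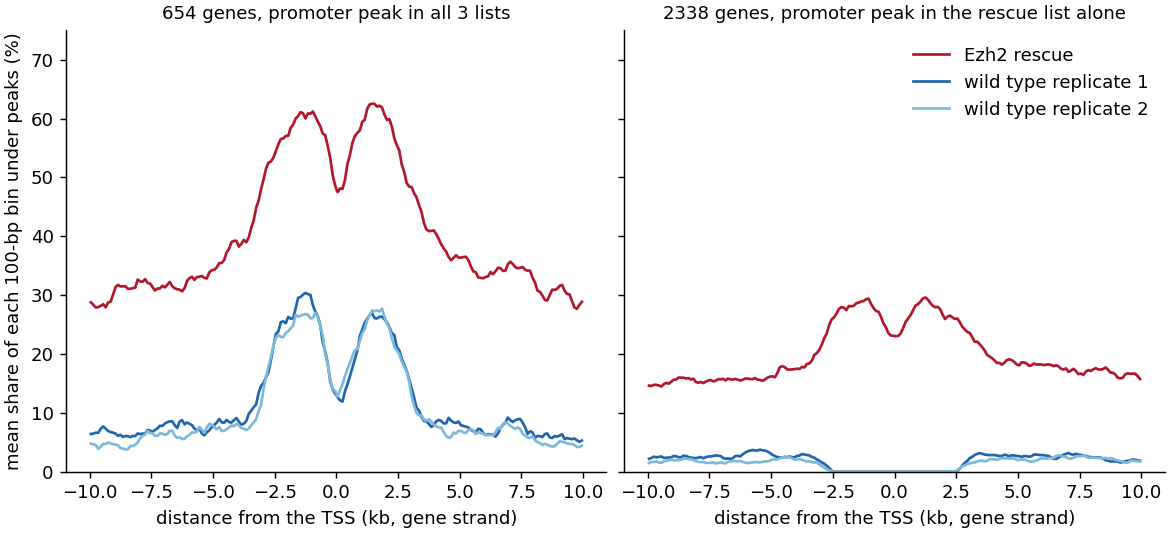
Mean share of each 100-bp bin under peaks (%) by distance from the TSS (kb, on the strand of the gene), for the 654 kept genes (left) and the 2338 new genes (right), in the Ezh2 rescue and wild-type replicates 1 and 2. The rescue line lies above both wild-type lines on the left, with a dip at the TSS in all 3; on the right the wild-type lines are at 0 within 2500 bp of the TSS because of how these genes were chosen.

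Genes marked in both wild-type libraries of experiment 1 numbered 4426 (20.7% of all genes). The rescue marked 72.0% of them, against 28.3% and 23.7% for the wild-type libraries of experiment 2. They made up 88.2% of the kept genes and 69.4% of the new genes (67.5% to 71.3%), and 6.51% of the genes with no promoter peak in the 3 lists.

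Transcription factors of development were marked at a higher share than all genes in the 3 lists, whose shares over all genes were 19.6% in the rescue, against 7.35% and 6.33% in wild type. In the 5 lists of such factors (HOX, PAX with sine oculis homologs, other homeobox, neural bHLH and SOX, mesoderm and endoderm), 117 of 203 genes had a rescue promoter peak (57.6%), against 42 and 38 in wild type (20.7% and 18.7%). All 26 marked in both wild-type lists had one, where all genes gave 94.1%. Another 64 (31.5%) had a rescue peak and no wild-type one, where all genes gave 10.9%. Of these 64, 61 were marked in both libraries of experiment 1, against 69.4% of all new genes. Neighbouring genes can share a peak, so these counts are not of independent sites.

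HOX genes, which set position along the body axis, had rescue promoter peaks at 23 of 39 members (59.0%). In wild type 15 and 12 had one (38.5% and 30.8%). All genes gave 19.6%, 7.35% and 6.33%. The 12 marked in both wild-type lists were kept, where all genes gave 94.1%. Of the 39, 8 were new, where all genes gave 10.9%. The marked genes were unevenly spread over the clusters. After the values were seen, the genes were split by paralog group: the rescue marked 16 of the 16 genes of groups 9 to 13 and 7 of the 23 genes of groups 1 to 8, against 10 and 9 of 16 and 5 and 3 of 23 in wild-type replicates 1 and 2. Experiment 1 wild type marked 16 and 8. Those unmarked in the rescue included Hoxc4, Hoxc5, Hoxc6 and Hoxc8.

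Peaks covered 99.0% of the Hoxb8 promoter in the rescue, against 58.6% and 40.6% in wild type. At Hoxb13, a posterior gene of the cluster, coverage was 100% in the rescue, against 65.0% and 24.6%, and the rescue peak was 12300 bp wide, against 2350 and 1400 bp in wild type. Of the new members, Hoxa9 was covered to 96.0% and Hoxd12 to 76.0% in the rescue and had no wild-type promoter peak. At both kept promoters, Hoxb8 and Hoxb13, coverage was higher in the rescue than in either wild-type library.

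Among the PAX factors and sine oculis homologs of organ formation, the rescue marked 8 of 15 (53.3%), against 4 and 3 in wild type (26.7% and 20%). All genes gave 19.6%, 7.35% and 6.33%. The promoter of Pax2, a factor of kidney and optic development, was covered to 89.2% in the rescue, against 24.2% and 18.2% in wild type. Six2, which maintains nephron progenitors, had 49.0% in the rescue and none in wild type. Pax6, the eye and forebrain factor, had no peak in the rescue or in wild type of experiment 2, although experiment 1 wild type covered its whole promoter.

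Other homeobox factors had rescue peaks at 38 of 66 members (57.6%), against 10 and 12 in wild type (15.2% and 18.2%), and 23 were new. All genes gave 19.6%, 7.35% and 6.33%, with 10.9% new. Pitx3, a factor of lens and dopaminergic neurons, was covered to 78% in the rescue, against 39.7% and 44.7%. Gbx1 had 85.0% against 37.0% and 53.9%. Of the new genes of this list, Uncx, a homeobox gene of the axial skeleton, had the widest rescue peak, with 10050 bp and 76.0% of the promoter. That peak is wider than any new peak, so it met a wild-type peak outside the promoter window. The second of the Ezh2 -/- libraries also had a peak, over 38.0% of the Uncx promoter. Lhx5 followed with a rescue peak of 7800 bp. Otx2, a forebrain factor, was among 12 members marked in experiment 1 and without a rescue peak.

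Neural bHLH and SOX factors were marked at 17 of 35 members in the rescue (48.6%), against 3 and 4 in wild type (8.57% and 11.4%). All genes gave 19.6%, 7.35% and 6.33%. The promoter of Olig2, a factor of oligodendrocytes and motor neurons, was covered to 72.1% in the rescue, against 19% and 12.0% in wild type, and to 71.1% in the second of the Ezh2 -/- libraries. Neurog3, which starts endocrine differentiation in the pancreas, had 91.2% in the rescue and none in wild type, and 17% in that Ezh2 -/- library. Sox10, a neural crest factor, had 78% and none.

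In the mesoderm and endoderm list the rescue marked 32 of 49 (65.3%), against 10 and 7 in wild type (20.4% and 14.3%). All genes gave 19.6%, 7.35% and 6.33%. Sox18, a factor of endothelial and hair follicle development, was covered to 97.1% in the rescue, against 45.1% and 70.0%. Gata2 had 48.0% against 14.0% and 17%. Gata3, which directs T cell and epithelial fates, was new, with a rescue peak of 6150 bp over 49.8% of its promoter.

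Secreted developmental signals and their receptors had the highest rescue share of the 17 lists, 43 of 61 (70.5%), where all genes gave 19.6%. In wild type 18 and 12 were marked (29.5% and 19.7%, where all genes gave 7.35% and 6.33%). The 9 marked in both wild-type lists were kept, where all genes gave 94.1%. The Shh promoter was covered to 89.0% in the rescue, against 33.0% and 35.0% in wild type, and to 21.0% in the second Ezh2 -/- library. Slit3, an axon guidance ligand, had 59.5% against 36.5% and 25.5%. Wnt1 and Gdf6 were new, with 44.0% and 39.4%. Ngfr, with 92% against 23.0% and 41.0%, also carried peaks in both Ezh2 -/- libraries, over 24.0% and 55.0% of the promoter.

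Genes of other lineages were also marked at more members in the rescue. Epithelial genes were marked at 18 of 27 members in the rescue (66.7%), against 7 and 3 in wild type (25.9% and 11.1%). Genes of blood and endothelium were marked at 17 of 27 (63.0%), against 5 and 7 (18.5% and 25.9%). The shares of all genes were 19.6%, 7.35% and 6.33%. Krt17, a keratin of stratified epithelia, was covered to 75.0% in the rescue, against 11% and 15%. Esrp1, a splicing regulator of epithelial cells, was new, with 64.0%. Irf8 had 86.0% in the rescue, against 7.86% and 43.9%, and Gfi1b, a repressor of erythroid and megakaryocyte cells, 88.0% against 17% and 38.0%. Ikzf3, the lymphoid factor Aiolos, had 20.9% in the rescue against 20% and 21.0%. Not all members marked in wild type were marked in the rescue: Krt20 and St14 had a peak in wild-type replicate 1 alone, over 13% and 15% of the promoter, and Ptprc and Flt1 in replicate 2 alone, over 13% and 12.0%.

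Potassium channels were marked at 27 of 49 members in the rescue (55.1%), against 12 and 6 in wild type (24.5% and 12.2%). Neurotransmitter receptors were marked at 17 of 51 (33.3%), against 1 and 6 (1.96% and 11.8%). All genes gave 19.6%, 7.35% and 6.33%, so the receptors lay below that share in wild-type replicate 1 and above it in replicate 2. Kcnk1, a leak channel, was covered to 88.0% in the rescue, against 29.0% and 13%, and Chrna4, a nicotinic receptor subunit, to 83.0% against 32.0% and 15%. Kcnj4 and Grin1, a subunit of NMDA receptors, were new, with 76.0% and 59.1%.

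Genes that fibroblasts or all cells use were rarely marked in any of the 3 lists. Of 26 fibroblast genes, Fbn1 and Tagln had a rescue peak (15% and 12.0% of the promoter) and none had a wild-type peak. Of 28 housekeeping genes, Reep5 alone had a rescue peak, over 19% of the promoter, against none and 19% in wild type. The shares, 7.69% and 3.57%, lay below the 19.6% of all genes. Cell cycle genes were marked at 3 of 30 members (10%), against 2 and 1 in wild type (6.67% and 3.33%, where all genes gave 7.35% and 6.33%). Cdk4, a kinase of the G1 phase, was one of them, with 21.2% in the rescue, between the 26.2% and 17.2% of the wild-type replicates.

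**Figure D5:**
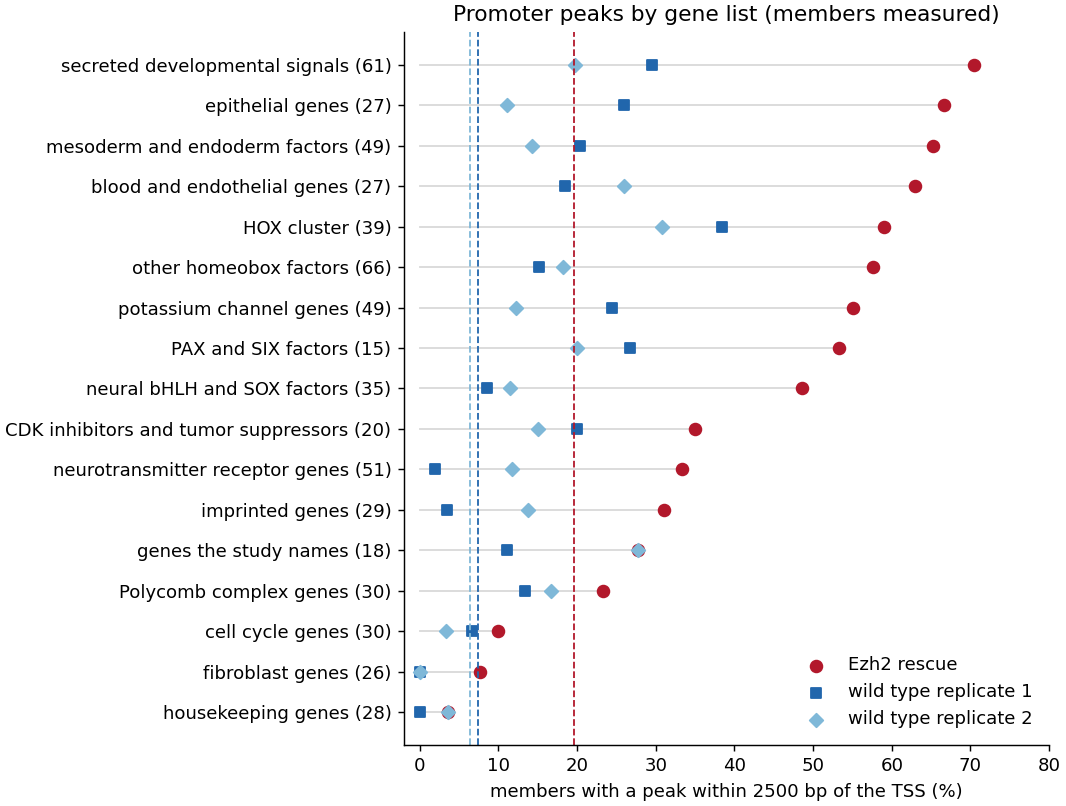
Share of the measured members of 17 gene lists with a peak within 2500 bp of the TSS (%), in the Ezh2 rescue and wild-type replicates 1 and 2. Points are shares of members, with the number of members beside each list name, and dashed lines the shares of all protein-coding autosomal genes (19.6%, 7.35% and 6.33%); the rescue share runs between 3.57% and 70.5%.

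The genes of the Polycomb machinery themselves were marked at 7 of 30 members in the rescue, against 4 and 5 in wild type. The rescue share, 23.3%, was near the 19.6% of all genes. The wild-type shares, 13.3% and 16.7%, lay above the 7.35% and 6.33% of all genes, on these 4 and 5 members. Cbx2 and Cbx8, which encode chromodomain subunits of PRC1, were marked in all 3 lists. Cbx2 was covered to 50.5% in the rescue, against 26.0% and 30.0%, while Cbx8 had 28.7%, against 9.66% and 27.7%. Ezh2, Eed and Suz12 had no promoter peak in the 3 lists. Ezh1 had a peak in wild-type replicate 2, over 12.0% of the promoter, and in neither of the other libraries.

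Inhibitors of cell cycle kinases and tumor suppressors were marked at 7 of 20 members in the rescue (35.0%, where all genes gave 19.6%), against 4 and 3 in wild type (20% and 15%, where all genes gave 7.35% and 6.33%). Cdkn1a, which encodes the kinase inhibitor p21, carried a rescue peak of 6100 bp (chr17:29226251-29232350), against 2400 and 1450 bp in wild type. Sfrp5, a secreted Wnt antagonist, was new, with 87.0% of the promoter. Cdkn2a, the Ink4a/Arf locus, had no peak in any of the 3 libraries, and none in either experiment 1 wild-type library. Imprinted genes were marked at 9 of 29 in the rescue (31.0%), against 1 and 4 in wild type (3.45% and 13.8%). Igf2, an imprinted growth factor, was new, with a rescue peak of 800 bp. Of the 18 autosomal genes that the study names, 5 were marked in the rescue (27.8%), against 2 and 5 in wild type (11.1% and 27.8%). The study chose these genes, so their count is not independent evidence. Myc, whose retroviral copy transformed these cells, had a rescue peak over 17% of the promoter of the endogenous gene, against none and 16% in wild type. Cpa6 had no peak in the 3 libraries.

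Over all new genes, the widest rescue peak was one of 11500 bp (chr10:42302251-42313750) at Nr2e1, a nuclear receptor of neural stem cells, and its neighbour Ostm1. It covered 78% of both promoter windows, and the second Ezh2 -/- library had a peak over 16% of each. Col27a1, a fibrillar collagen, had a rescue peak of 9550 bp, and Slc34a3, a phosphate transporter of the kidney, one of 9400 bp that covered its whole promoter window. These 3 peaks exceed the 8600 bp of the widest new peak and so reached wild-type peaks beyond the promoter windows. Experiment 1 wild type and the Ezh1 rescue had peaks at all of these promoters.

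Of the 21418 genes, 582 were in the 17 lists, so few list members are to be expected in any small set. The 41 genes marked in both wild-type lists and not in the rescue held none. Their wild-type peaks were short, covering medians of 15% and 13.4% of the promoter window, and 16 of the 41 (39.0%) were marked in both experiment 1 wild-type libraries, against 88.2% of the kept genes. The widest wild-type regions of this group lay at Cd300c, a receptor of myeloid cells, and E2f6, a repressor of the E2F family found in a PRC1 complex. At E2f6, peaks covered none of the promoter in the rescue, against 18% and 35.0% in wild type, and 82.6% in the Ezh1 rescue. At Cd300c they covered none in the rescue, against 7.40% and 27.4%. Krt13, Entpd2, Tsc22d4 and Rad9 were also in this group, with wild-type coverage of 1.06% to 24.0%, and were covered to at most 12.9% in the Ezh1 rescue. Of all 41 genes, 27 (65.9%) were marked in the Ezh1 rescue, against 97.6% of the kept genes.

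Some developmental genes had no promoter peak in any of the 3 lists, although both wild-type lists of experiment 1 had peaks there. Absence of a called peak does not show absence of the mark. Over the 17 lists these included Pax7, Hand1, Gata6, Dlx5 and Alx4. At Hand1, a factor of heart and placenta, experiment 1 peaks covered 26.8% and 68.4% of the promoter and the Ezh1 rescue 81.0%. At Gata6, an endoderm and heart factor, the values were 39.8% and 76.6% in experiment 1 and 63.8% in the Ezh1 rescue. The rescue and both wild-type libraries of experiment 2 were at 0 at all 5 of these promoters.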

How the data were processed

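H3K27me3 ChIP-seq of MNase-digested chromatin from mouse iMEFs was analysed from deposited peak lists. According to the study's methods, the authors aligned HiSeq 2500 reads to mm9, removed duplicates and down-sampled the libraries to a common number of reads. They scaled 2 conditions that are also cited above, Ezh2 -/- and the Ezh1 rescue, by the amount of precipitated DNA. No coefficient is named for the Ezh2 rescue or wild type. Peaks were called per sample against input. Tools in the submitters' notes are MACS2 2.0.10 for peaks, HOMER 3.17, SAMtools, and the aligners Bowtie2 2.1.0 and Bowtie 0.12.8. The deposited lists hold neither counts nor signal but peak positions (other), which lie on a grid of 50 bp in experiment 2. A longer list meets any region more easily, and the cause of the difference in list length was not tested.

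Repeated identical lines were removed (181 in the rescue, 1 in each wild-type list) and autosomes used. Overlap meant 1 bp. All peak ends lay within NCBIM37 (mm9) chromosomes. A promoter spanned 2500 bp to each side of a gene's 5′ end in the GENCODE M1 annotation. Positions are 1-based. Of 617 list entries, 600 were measured (582 genes); 11 lie on sex chromosomes, 4 are not protein-coding, 1 was not matched and 1 was already listed. Of genes with several identifiers the first was taken. The comparison and the gene lists were chosen with earlier results of these data known. Named genes are the 4 members per list with the broadest wild-type region and the 4 with the broadest new rescue peak, the 10 widest genes of the new and not-kept classes, and genes the study names, from which the text gives a part; other Hox and Polycomb genes, Reep5 and genes marked in experiment 1 alone were chosen after their values were seen. Python 3.11.15, NumPy 2.4.6, SciPy 1.17.1 and matplotlib 3.10.9 were used, and the overlap code was tested on simulated lists. Input libraries were not analysed here. Some results that name items withheld for evaluation are not reported here.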

Additional observations from a re-analysis of the deposited data

Results flagged for a closer look

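Chromosome X was outside the autosomal comparison and held 388 rescue peaks, against 55 and 33 wild-type peaks. That is 0.600% of the autosomal and X peaks of the rescue (95% Wilson interval 0.544% to 0.663%), against 0.301% (0.231% to 0.391%) and 0.246% (0.175% to 0.345%) in wild type. It was flagged as signal in data that the comparison did not use, above the level of the 2 shorter wild-type lists of experiment 2. Other lists varied widely. The Ezh1 rescue held 2437 X peaks beside 111774 autosomal ones. Experiment 1 wild type held 1413 and 1883 beside 81153 and 80524, and its Ezh2 -/- lists 27 and 53 beside 36427 and 55489. The difference between the rescue and wild type was not tested, since the rescue has 1 library.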

How the results depend on the processing

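Of 36 alternative values, 16 stayed within the counting interval or 1.5 times the count, and 20 moved. The share of wild-type regions kept (85.5%) was 83.8% when 50% of the region had to be covered, 95% with peaks of at least 1000 bp alone, 62.3% for peaks of either wild-type library, and 63.0% to 68.4% with a single wild-type library. The share of rescue peaks with no wild-type peak (76.3%) was 85.6% when 50% of the peak had to be covered, 73.7% after merging peaks under 1000 bp apart, 87.0% with peaks of at least 1000 bp, 43.5%, no longer a majority, when no wild-type peak could lie within 5000 bp, and 83.6% to 87.0% with a single wild-type library. The share of promoter genes kept (94.1%) was 84.5% to 86.6% with a single wild-type library, and the count of genes with a new promoter peak (2338) was 2857 to 3015. The share of new peaks in experiment 1 wild type (60.7%) was 53.4% when 50% of the peak had to be covered, 68.3% with peaks of at least 1000 bp, 70.2% for either library, and 59.9% to 64.6% with a single library. In an alternative added after the data were seen, the rescue list was cut to 15806 peaks, the mean number of wild-type peaks. The cut followed the deposited line order, which no source explains. It matched the number of peaks and not the covered length: the peaks left covered 31.7 Mb, more than either wild-type list. The cut list met 59.9% of the wild-type regions, and 53.6% of its peaks had no wild-type peak. No paired analysis was possible because the comparison has 1 rescue library and no test.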
